A study of Arabidopsis thaliana with 28 samples.

Results

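Shoots of Arabidopsis thaliana taken 3 h after wounding were compared with shoots taken 1 h after wounding, to see which transcripts high soon after wounding had returned, which persisted and which rose further. The arrays were chosen by the tissue and time in their labels, which gave 4 of the 28 ATH1 microarrays of the series, 2 at each time. All plants were of accession Col-0, were grown on Murashige and Skoog medium at 24 degrees and 50% humidity in days of 16 h of light, and were punctured with pins on day 16 after 3 h of light. The shoots at 1 h had thus had 4 h of light that day and the shoots at 3 h had had 6 h, so time since wounding and time of day moved together by 2 h and cannot be told apart within shoots. Roots taken at 1 h and 3 h after the same treatment (2 arrays each) gave the same hours of the day in the other organ, and shoots at 24 h (2 arrays) gave a level close to the hour at which wounding began. Unwounded plants were not analysed here, and whether leaves or roots were pierced is not stated in the labels.

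A leaf wound sets off calcium influx and electrical signals within moments, and these are followed by a burst of jasmonate made from membrane lipids in plastids and peroxisomes. Jasmonoyl-isoleucine, the active hormone, releases transcription factors such as MYC4 from their repressors, and the same response switches on enzymes that oxidise or conjugate the hormone. Many of the earliest wound transcripts, among them zinc finger and ERF factors, calmodulin-like proteins and ubiquitin ligases, are also known from touch, cold and defence responses and are often short-lived.

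Values below are signals, the deposited intensities of a probe set on each array, and log2 changes are differences between group means of log2(signal + 10.7) with their SE from a limma model. A change was called at an adjusted p under 0.05 over all 16263 probe sets tested. The offset of 10.7 damps weak signals, so changes of dim genes are understated, and signals under about 21.4 to 29, the 40th percentile of an array, are near the lowest measured. Nothing in the labels ties the replicates to separate cultures, so the spread between replicates may be technical. The number of arrays limits the precision. In the main fit, SE and p-values rest on the spread within groups pooled over all arrays of the series, roots and other times included. They do not measure the scatter at the compared times alone, so a gene with close replicates at both times can miss the call. In whole shoots, fewer cells of a type and less RNA per cell cannot be told apart.

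The 4 arrays matched their labels. Replicates correlated across probe sets with r = 0.984 at 1 h and 0.989 at 3 h (genes are not independent replicates), above the 0.95 to 0.963 of the nearest array of another group. The summed signal of 5 shoot markers (RCA, SBPASE, PRK, LHCB4.1 and LHCB4.2) was 21000 to 24100 at 1 h and 19600 to 23200 at 3 h, against 223 to 591 on the root arrays of the same times. Of 7 root markers 4 were measured, and their sum was 769 to 842 at 1 h and 1230 to 1270 at 3 h; without PYK10, a beta-glucosidase, it was 60.1 to 67.6 and 45.8 to 50.3. The 3-prime over 5-prime ratio of the second actin control was 2.54 to 3.04 at 1 h, 2.22 to 2.47 at 3 h and 4.15 to 6.17 at 24 h, against 2.77 to 3.68 on the other shoot arrays. A first actin control did not set the 24 h arrays apart (9.17 to 10.4 against 7.89 to 30.1). The second GAPDH control did: 1.32 to 1.59 at 24 h, 1.07 to 1.22 at 1 h, 1.08 to 1.26 at 3 h. The other shoot arrays gave 1.08 to 1.28. The first GAPDH control overlapped (2.06 to 2.73 at 24 h, 1.62 to 2.16 at 3 h). Both ubiquitin controls were higher at 24 h than at 1 h and 3 h, but within the range of the other shoot arrays. The part of RNA quality in levels given against 24 h was not tested.

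Between 1 h and 3 h the shoot transcriptome changed on a broad scale. Of the 16263 probe sets, 2591 (15.9%) were called higher at 3 h and 1929 (11.9%) lower, which is 27.8% in all. Counts of list or family members given below are to be read beside these shares. At least 2-fold changes (7.62%) were near balance, with 628 higher (3.86%) and 612 lower (3.76%). Groups that do not overlap were common, at 64.1% of all probe sets, so non-overlap of 2 arrays against 2 is a weak criterion and is given below as a description. The median log2 change of all 16263 was 0.037. The neighbouring steps called 15.4% (1 h against 0.5 h) and 11.8% (6 h against 3 h) and share arrays with this one. Without replicate 1 at 3 h the calls fell to 1608 higher and 1217 lower.

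Most large falls were returns from a raised level, and large rises started below the 24 h level more often than above it. Of the 612 probe sets that fell at least 2-fold, 455 had stood at least 2-fold above 24 h at 1 h by the same test, and 47 still did at 3 h. Their median was 1.49 (log2) above 24 h at 1 h and -0.01 at 3 h. Of the 628 that rose at least 2-fold, 255 had stood at least 2-fold below 24 h at 1 h and 10 above it. At 3 h 169 of the 628 stood at least 2-fold above 24 h and 2 below, and the median had moved from -0.81 to 0.53. Both levels are read against the same 24 h arrays. The 612 and 628 were also chosen on the 1 h and 3 h arrays. That choice favours high levels at 1 h among the falls and low levels at 1 h among the rises.

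To follow genes high soon after wounding without choosing them on the arrays compared, the early wound genes were taken as the 796 probe sets that stood at least 2-fold above 24 h at 0.25 h or 0.5 h (4.89% of those tested). With no unwounded plants, the part of the wound in these levels was not tested. By 3 h most of them had come down. From 1 h to 3 h 489 of the 796 (61.4%) fell, against 11.9% of all probe sets, 63 (7.91%) rose, against 15.9%, and 244 did not pass the test; their median change was -0.81 (log2), against 0.04 over all probe sets. By level at 3 h, 436 (54.8%) had fallen and were under 2-fold above 24 h, 53 (6.66%) had fallen but were still at least 2-fold above it, and 21 (2.64%) had not passed the test of a change and were still at least 2-fold above it. At 1 h 385 of the 796 stood at least 2-fold above 24 h by the test and at 3 h 95 did. Of the 436, 297 met that level at 1 h, and the other 139 did not meet it before their fall.

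The remaining 223 early wound genes showed no called change and no level at least 2-fold above 24 h at 3 h by the test, and 207 of these were already under 2-fold above 24 h at 1 h. The 63 that rose were mostly not genes climbing from a high level: 47 of them stood below 24 h at 1 h. Of the 21 persisting probe sets 12 carry 1 gene. Among those 12 the 5 furthest above 24 h were AT5G62360, LTI30, AT3G52710, AT4G02360 and AT5G50335. AT3G52710 read 29.2 and 22.2 at 1 h and 29.7 and 30.5 at 3 h. The count of persisting genes depends on the offset and on the 24 h arrays, and it was 66 with log2(signal + 1) and 45 without replicate 2 at 24 h. A wider group of 778 probe sets stood at least 2-fold above 24 h at 1 h (4.78%), chosen on the 1 h arrays, which favours a fall. Of these 558 fell to under 2-fold above 24 h, 70 fell partly, 69 persisted and 17 rose further. With other baselines 7 or 9 rose further and, with the mean of 6, 12 and 24 h, 46 fell partly, and with log2(signal + 1) 127 persisted. Of the 778, 393 had not been among the early wound genes, so their rise came between 0.5 h and 1 h or was not called before.

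**Figure D1:**
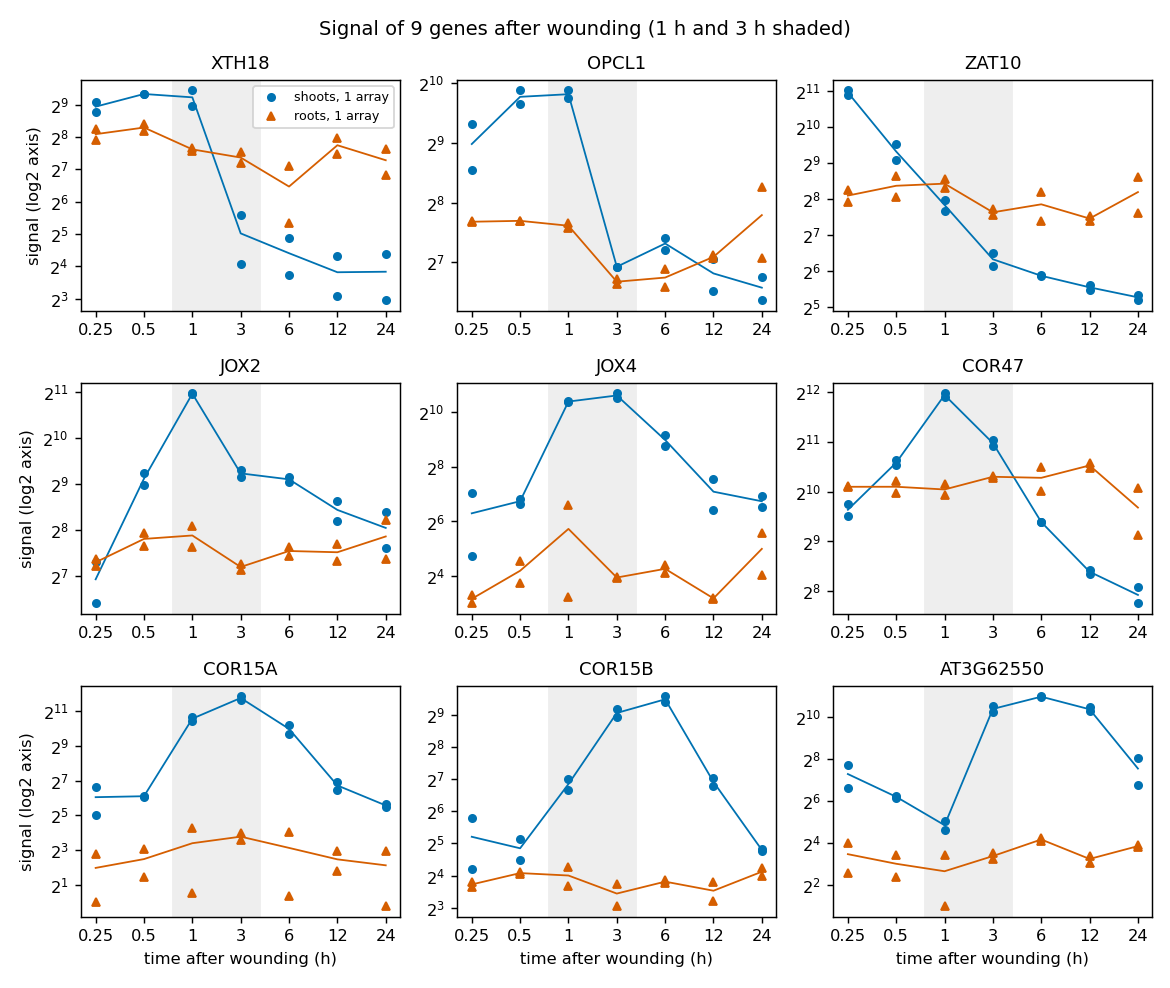
Signals of 9 genes on a log2 axis at the 7 times after wounding, with 1 point for each array, a line through the means, circles for shoots and triangles for roots, and 1 h and 3 h shaded. XTH18, OPCL1 and ZAT10 approach their later level by 3 h, JOX4 and COR15A stay high, COR15B climbs, and AT3G62550 goes from its lowest shoot level at 1 h to over 1000 at 3 h.

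Among enzymes of jasmonate synthesis, the activating ligase fell and a beta-oxidation enzyme rose. Many genes of this pathway sit on probe sets not named here, and 2 of 16 listed genes were measured. OPCL1 (AT1G20510), the ligase that activates the jasmonate precursor OPC-8:0 for beta-oxidation, read 942 and 862 at 1 h and 121 on both arrays at 3 h. Its fall was 2.79 ± 0.26 on the log2 scale (adjusted p = 1.41e-07, limma), or 7.44-fold in mean signal, and at 3 h it stood 0.33 (log2) above its 24 h level. AIM1, a multifunctional protein of peroxisomal fatty acid beta-oxidation, read 228 and 315 at 1 h and 601 and 565 at 3 h, a rise of 1.09 ± 0.14 (adjusted p = 4.4e-06, limma). For both genes the 2 times did not overlap.

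Of 11 listed genes for enzymes that remove or modify jasmonate 4 were measured, 2 fell and 0 rose. JOX2 (AT5G05600), one of the jasmonate oxidases that hydroxylate jasmonic acid, read 1990 and 2010 at 1 h and 573 and 631 at 3 h, a fall of 1.72 on the log2 scale (SE 0.28, adjusted p = 9.13e-05, limma). It had not fully returned, since its mean at 24 h was 265. JOX4 (AT2G38240), of the same family, read 1300 and 1360 at 1 h and 1640 and 1460 at 3 h, with a change of 0.22 ± 0.64 (adjusted p = 0.843, limma) against a mean of 107 at 24 h. In the main fit JOX4 at 3 h was therefore not told apart from 1 h, although the groups did not overlap. Both times lay far above 24 h (3.52 and 3.74, log2). JOX3 read 129 and 217 at 1 h and 437 and 474 at 3 h, against a mean of 181 at 24 h; the groups did not overlap, yet its change of 1.38 ± 0.65 did not pass (adjusted p = 0.132, limma). In a fit of the 4 arrays alone JOX3 passed at 0.00161. Its shoot arrays at 0.25 h lay far apart (10.02 and 127.3), a spread that enters the error of the main fit. JMT, the methyltransferase that makes methyl jasmonate, went from 90.3 and 78.2 to 3.04 and 19.7, a fall of 2.21 with both 3 h values among the dimmest signals.

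Of the jasmonate regulators measured (3 of 19 listed), 1 fell. MYC4, a bHLH activator of jasmonate responses, read 176 and 151 at 1 h and 114 and 89.5 at 3 h, a fall of 0.64 ± 0.20 (adjusted p = 0.0211, limma). The call for MYC4 ended without replicate 1 at 1 h (adjusted p = 0.15) and without replicate 2 at 3 h (0.18). MYC3, its close relative, changed by 0.17 ± 0.18 and was not called. ORA47, an AP2/ERF activator of jasmonate synthesis genes, read 47.5 and 73 at 1 h and 50.4 and 53.3 at 3 h, with a mean of 35 at 24 h. Its difference of -0.16 was not called, and ORA47 was already within 2-fold of 24 h at 1 h.

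Of 17 listed jasmonate responsive defence genes 5 were measured, 2 rose and 0 fell. At both times PDF1.4 and PDF1.2, defensins among them, were far below their 24 h means. PDF1.4, a plant defensin, went from 26.2 and 13.7 to 97.4 and 124 (2.01 ± 0.46), and THI2.1, a thionin, from 25.4 and 20.6 to 46 and 64.7 (0.96 ± 0.22). Both nevertheless stayed below their 24 h means of 396 and 78.4. PDF1.2, a defensin known as a marker of joint jasmonate and ethylene action, read 19.2 and 29.3 at 1 h and 37.3 and 56.1 at 3 h. Its mean at 24 h was 322, from arrays that lay far apart (509.6 and 135.4), as did those at 0.25 h (14.1 and 726.3). In a fit of the 4 arrays alone PDF1.2 passed (0.71, adjusted p = 0.0437, limma). The 1 h and 3 h groups did not overlap, yet in the main fit its change was not called (adjusted p = 0.656, limma). PDF1.2b likewise was not called (0.24 ± 1.22), nor was the thionin THI2.2, which read 473 and 455 at 1 h and 480 and 380 at 3 h.

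Some of the rapid stress regulators continued downwards. ZAT10 (AT1G27730), a zinc finger repressor, read 205 and 252 at 1 h and 70.8 and 89.8 at 3 h, after a mean of 1990 at 0.25 h. The fall from 1 h to 3 h was 1.39 ± 0.26 (adjusted p = 0.000458, limma) and left it 0.88 (log2) above 24 h. WRKY22, a WRKY factor of immune signalling, fell by 0.81 (adjusted p = 0.00411, limma), a call that ended without replicate 1 at 3 h (adjusted p = 0.11). WRKY53 and WRKY6 changed by -0.02 and -0.51 and were not called, so 2 of the 4 measured of 30 listed factors fell and 0 rose. Among all 5 measured WRKY genes 1 fell and 0 rose, where 11.9% of all probe sets fell and 15.9% rose.

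Of the calcium and ubiquitin ligase genes that respond to touch and wounding, 5 of 13 listed were measured, 3 fell and 0 rose. PUB22, a U-box ubiquitin ligase that dampens immune signalling, read 105 and 128 at 1 h and 24.7 and 28.7 at 3 h, at its 24 h mean of 25.2 (fall of 1.76 ± 0.24, adjusted p = 1e-05, limma). Its paralog PUB23 fell by 1.44, to 24.1 and 33.9, while PUB24 read 33.9 and 61.5 at 1 h and 35.3 and 39.3 at 3 h and was not called. CML37, a calmodulin-like protein, fell by 1.28 from 41.5 and 31.9 to 9.57 and 7.83, below the 40th percentile. CML38 read 84.3 and 99.8 at 1 h and 41.3 and 43.4 at 3 h, groups that did not overlap, and its change of -0.95 ± 0.79 was not called (adjusted p = 0.419, limma). CML38 passed in a fit of the shoot arrays alone (0.0434).

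Over the 8 measured U-box genes named PUB, 4 fell and 0 rose, where 11.9% of all probe sets fell and 15.9% rose. The median of the 8 was -0.77 (log2), and the others called were PUB19 (-1.09) and PUB43 (-1.28). Among the 7 measured calcium sensors named CML, CML42 fell by 0.68, and CML41 (1.37) and CML30 (0.60) rose; these families were gathered by symbol after values had been seen. The CML42 call ended without replicate 2 at 1 h (-0.29) or replicate 1 at 3 h (-0.58). With the 4 arrays alone it ended as well (adjusted p = 0.0656, limma). The CML30 call ended without replicate 2 at 1 h (0.48) or either 3 h array (0.66 and 0.54). Further signalling genes that fell were again picked after their values were seen. SRC2, a C2-domain protein of the endomembrane system, read 2130 and 2380 at 1 h and 514 and 511 at 3 h against 542 at 24 h (fall of 2.11 ± 0.24, adjusted p = 9.82e-07, limma). PTI1-4, a kinase, fell by 1.28, from 249 and 343 to 115 and 114, against 110 at 24 h. EFR, the receptor for the bacterial elongation factor Tu epitope, fell by 1.06, to 22.8 and 36.4 at 3 h. Its 24 h arrays read 14.7 and 2.96 (mean 8.82), near the lowest signals measured. The EFR call ended without replicate 2 at 1 h (-0.90) or replicate 1 at 3 h (-0.81). It also ended with log2(signal + 1) (adjusted p = 0.228, limma).

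Both measured salicylate genes of 12 listed fell. GRX480, a glutaredoxin that binds TGA factors and represses jasmonate responsive PDF1.2, read 90.6 and 168 at 1 h and 21 and 26.5 at 3 h. That is a fall of 1.97 ± 0.28 (adjusted p = 2.16e-05, limma) to its 24 h mean of 24.3, and it rose again by 1.16 from 3 h to 6 h (adjusted p = 0.0095). SAG101, a partner of EDS1, fell by 0.59 from dim signals. Its call ended without the filter (adjusted p = 0.0596, limma), with the shoot arrays alone (0.125) and with the 4 arrays alone (0.106). It also ended without replicate 2 at 1 h (-0.25) or either 3 h array (-0.65 and -0.52). BSMT1, which makes methyl salicylate and methyl benzoate, was not on the list and was added after its values were seen. It fell by 1.44, from 42.8 and 53.8 to 10.4 and 11.5, and this call did not hold with log2(signal + 1) (adjusted p = 0.071, limma).

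Cold and dehydration genes covered persistence, further rise and partial return. Of 38 listed genes 4 were measured, 1 rose and 1 fell. COR15B (AT2G42530), a chloroplast protein that protects membranes in the cold, read 101 and 129 at 1 h and 572 and 488 at 3 h, a rise of 2.11 ± 0.25 (adjusted p = 1.63e-06, limma), or 4.62-fold. It stood 1.7 (log2) above 24 h at 1 h and 3.81 at 3 h. COR15A (AT2G42540), its tandem neighbour, read 1400 and 1650 at 1 h and 3700 and 3250 at 3 h, against 47.7 at 24 h. Groups of COR15A did not overlap, and its change of 1.18 ± 0.46 missed the threshold (adjusted p = 0.0658, limma), with 0.0309 in a fit of the shoot arrays alone.

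The dehydrins, hydrophilic proteins of drought and cold, did not rise. LTI30 (AT3G50970) read 607 and 1030 at 1 h and 642 and 682 at 3 h against 27.3 at 24 h, with a change of -0.25 ± 0.33 (adjusted p = 0.624, limma), so it persisted by the definition used here. COR47 (AT1G20440) read 3850 and 4040 at 1 h and 2090 and 1940 at 3 h, a fall of 0.96 ± 0.20 (adjusted p = 0.000922, limma) to a level still 3.00 (log2) above 24 h. From 3 h to 6 h COR47, LTI30 and COR15A all fell, by 1.57, 2.09 and 1.79, while COR15B stayed within its error (0.42, adjusted p = 0.316). AT4G30650 and AT4G30660, neighbouring genes for small hydrophobic stress proteins, were added after their values were seen. AT4G30650 went from 264 and 433 to 1780 and 1670 (2.31 ± 0.29), and AT4G30660 from 70.8 and 74 to 446 and 376 (2.34 ± 0.14).

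Only 7 of the 17 probe sets that stood high at 1 h and rose further carried 1 gene: AT4G30650, COR15B, PRN, AT5G47330, BGLU25, AT2G47890 and AT5G47455. PRN (AT3G59220), a pirin that interacts with a G-protein alpha subunit, read 104 and 122 at 1 h and 291 and 279 at 3 h (1.26 ± 0.16), against 39.5 at 24 h. BGLU25, a glycoside hydrolase, read 136 and 177 at 1 h and 339 and 279 at 3 h (0.94 ± 0.17), against 53.7. PRN and BGLU25 then fell from 3 h to 6 h, by 1.04 and 1.4.

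Cell wall genes held the largest fall and the largest rise among the listed genes. Of 24 listed genes 8 were measured, 4 fell and 2 rose. XTH18 (AT4G30280), a xyloglucan endotransglucosylase/hydrolase that cuts and rejoins xyloglucan, read 500 and 698 at 1 h and 16.9 and 48 at 3 h. It fell by 3.90 ± 0.45 on the log2 scale (adjusted p = 5.63e-06, limma), the largest fall among the genes that met the naming rule. XTH19, close to it in sequence, fell by 1.76, from 90.2 and 118 to 20.8 and 25.3. Near-identical copies can cross-hybridise. The XTH19 call ended without replicate 2 at 1 h (-1.58) or replicate 1 at 3 h (-1.67). The expansin-like genes EXLA2 and EXLA1 fell by 2.18 and 1.83. The EXLA1 call ended with the shoot arrays alone (adjusted p = 0.0794, limma). It also ended without either 1 h array (-1.54 and -2.13) or replicate 1 at 3 h (-1.41).

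EXPA8 (AT2G40610), an alpha-expansin that loosens walls, went the other way. It read 56.9 and 79.3 at 1 h and 929 and 575 at 3 h, a rise of 3.25 ± 0.35 (adjusted p = 1.38e-06, limma) to about its 24 h mean of 661. EXPA4 rose by 0.69, a call that ended with quantile normalization (adjusted p = 0.0692, limma). It also ended without replicate 1 at 1 h (0.49) or either 3 h array (0.60 and 0.79). AT5G62360, annotated as a pectin methylesterase inhibitor, read 1400 and 1370 at 1 h and 669 and 755 at 3 h against 5.81 at 24 h; the groups did not overlap, but its change of -0.95 ± 0.60 was not called (adjusted p = 0.267, limma; 0.000608 in a fit of the 4 arrays alone). It remained 5.50 (log2) above 24 h, the highest of the persisting early wound probe sets with 1 gene. Across the 21 measured genes with XTH or expansin symbols, 3 rose, 4 fell and 14 were not called, with a median of 0.01 (log2).

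The 15 largest falls, by rule, were XTH18, AT5G56980, TBL26, AT2G24600, AT4G32800, AT1G11960, AT4G08170, AT4G10390, OPCL1, AT3G01830, AT4G36010, AT1G19020, AT3G10720, AT2G39420 and AT2G34930. They spanned -3.90 to -2.70 (log2), and 12 of them have a locus name alone in the annotation used. TBL26 (AT4G01080), of the TRICHOME BIREFRINGENCE-LIKE family that acetylates wall polysaccharides, read 1120 and 1020 at 1 h and 98.9 and 108 at 3 h (-3.25 ± 0.22, adjusted p = 6.76e-10, limma). TBL26 was not an early wound gene: its mean was 105 at 0.25 h, 200 at 0.5 h and 1070 at 1 h, so its peak stood at 1 h alone among the times sampled, and at 3 h it lay 0.98 (log2) below 24 h. AT5G56980 went from 352 and 361 to 22.8 and 25.8, and AT2G24600 from 398 and 474 to 31.2 and 44.7. AT4G10390 and AT3G01830 ended below the 40th percentile at 3 h, so the size of their falls (2.83 and 2.76) depends on the offset.

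Among early wound probe sets with 1 gene that fell only partly, the deepest falls were those of AT3G01830, AT4G36010, AT2G34930, AT2G22880 and AT3G04010. AT2G34930 read 1310 and 1560 at 1 h and 218 and 205 at 3 h, against a mean of 52.3 at 24 h. AT4G36010 read 473 and 454 at 1 h and 64.7 and 54.8 at 3 h, against 19.5. AT3G04010 went from 256 and 316 to 71.4 and 82.3, against 8.92. For each of these genes the 2 times did not overlap, and the 3 h signals lay between the 1 h and the 24 h levels.

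The 15 largest rises, by the same rule, were AT3G62550, AT2G20670, CCL, EXPA8, AT1G23390, AT3G47160, AT1G56220, PORB, AT3G10020, AT1G02300, AT4G33666, AT1G15740, AT1G19960, AT3G15450 and AT3G15570, from 5.08 down to 2.41 (log2). AT3G62550 read 32.9 and 24.4 at 1 h and 1440 and 1200 at 3 h (5.08 ± 0.34, adjusted p = 4.28e-09, limma). Its level at 1 h was the lowest of the 7 shoot times, 2.2 (log2) below 24 h, and at 3 h it stood 2.88 above. CCL (AT3G26740), a transcript known for its control by the clock, read 270 and 180 at 1 h and 3130 and 2670 at 3 h (3.65 ± 0.43). PORB (AT4G27440), a light-dependent protochlorophyllide oxidoreductase of chlorophyll synthesis, read 195 and 208 at 1 h and 1610 and 1300 at 3 h (2.79 ± 0.26), against 221 at 24 h. AT3G62550, CCL and PORB differed in their start: the first pair lay below 24 h at 1 h, whereas PORB lay at its 24 h level (-0.12).

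AT2G20670 and AT3G10020 were both early wound genes and among the largest rises. AT2G20670 read 19.2 and 28.1 at 1 h and 460 and 414 at 3 h, against 297 at 24 h, and AT3G10020 went from 53.2 and 77.4 to 481 and 465, against 109. The other rising early wound genes named by rule were AT3G60420 (2.39), AT5G19120 (1.94) and AT5G60680 (1.92). Of these AT5G19120 and AT5G60680 came to 599 and 590 and to 277 and 295 at 3 h, against 24 h means of 438 and 195.

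At 3 h 414 probe sets stood at least 2-fold above 24 h (2.55%). Of these 237 had done so at none of the 3 earlier times, and 209 of the 237 were also called higher at 3 h than at 1 h. Of 521 probe sets that stood at least 2-fold below 24 h at 0.25 h or 0.5 h (3.2%), a set added after seeing the data, 233 were still at that level at 1 h and 114 at 3 h. From 1 h to 3 h 211 (40.5%) of the 521 rose, against 15.9% of all probe sets, and 47 (9.02%) fell, against 11.9%.

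**Figure D2:**
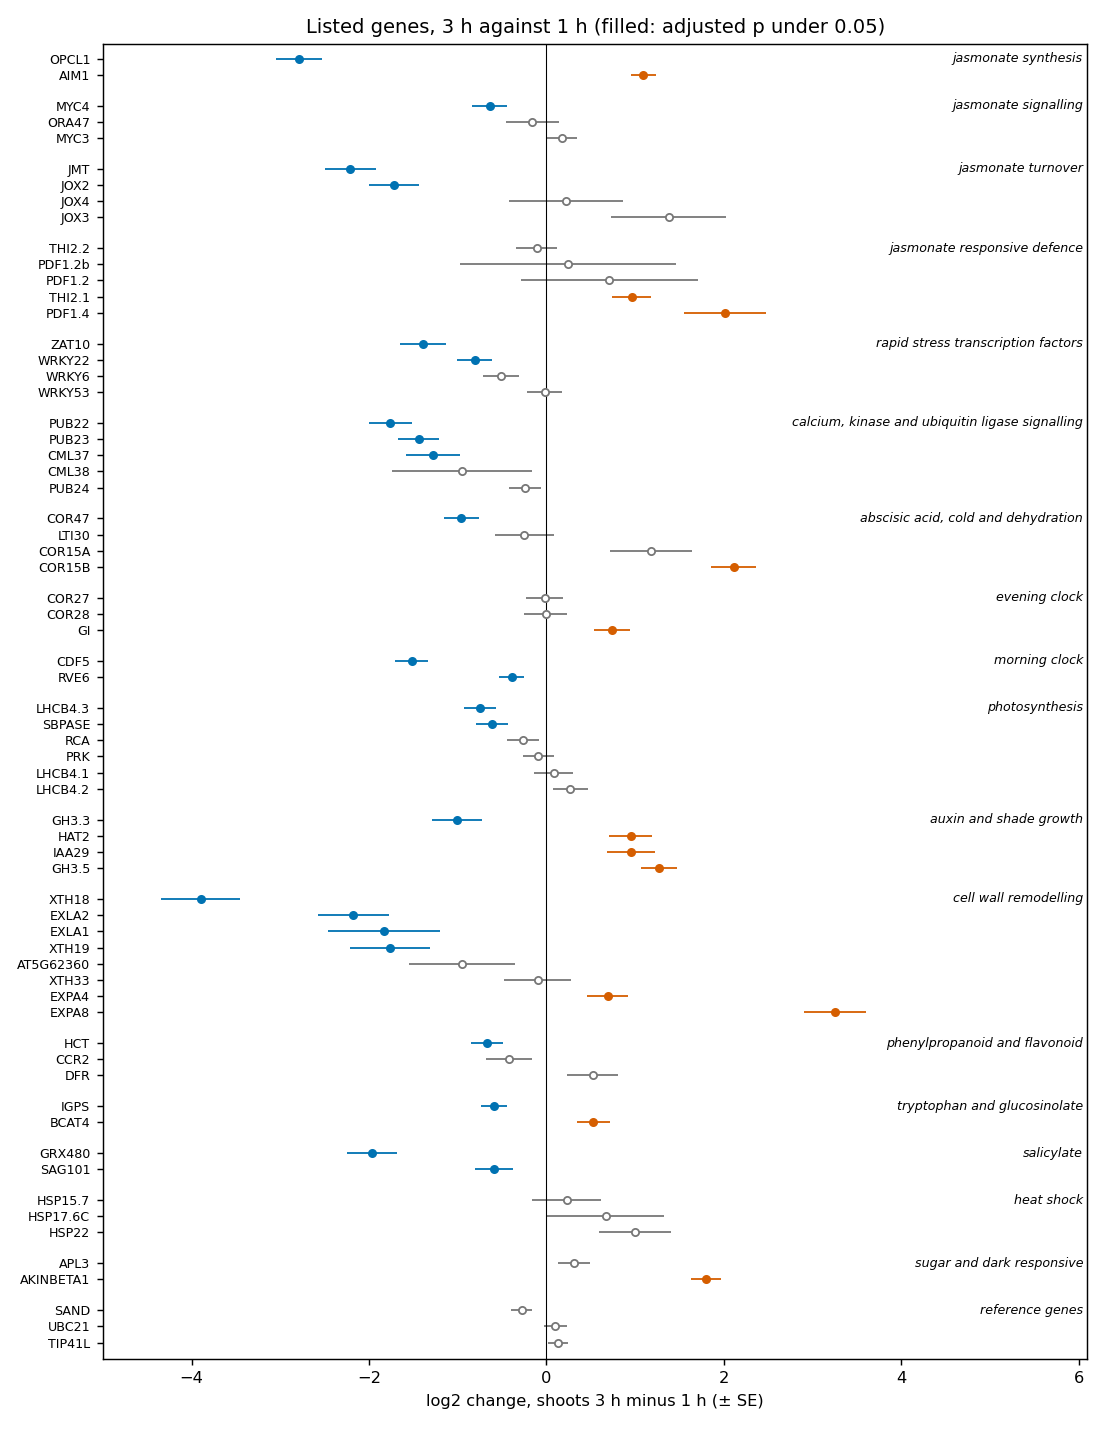
Points give the log2 change in shoots from 1 h to 3 h, with bars of 1 SE, for measured genes of the lists, grouped by list. Filled points passed the test, in blue for lower and orange for higher at 3 h; XTH18 lies farthest left (-3.90) and EXPA8 farthest right (3.25).

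Clock genes, known to follow the hour of the day, moved in both directions. Of 20 listed morning genes 2 were measured and both fell. CDF5, a DOF factor of the flowering pathway, went from 165 and 146 to 41.8 and 52.8 (fall of 1.52 ± 0.19, adjusted p = 3.14e-06, limma). RVE6, a MYB-like clock factor, fell by 0.39. Its call ended in a fit of the shoot arrays alone (adjusted p = 0.067, limma) and of the 4 arrays alone (0.0673). It also ended without either 1 h array (-0.40 and -0.38) or replicate 2 at 3 h (-0.26). Of 12 listed evening genes 3 were measured and 1 rose. GI (GIGANTEA) rose from 91.3 and 69.2 to 141 and 139 (0.74 ± 0.20, adjusted p = 0.00715, limma; 0.1 without replicate 2 at 1 h). In roots the GI difference was 0.73 and was not called (adjusted p = 0.126), and the difference between the organs was 0.01 (adjusted p = 0.993). COR27 and COR28, evening genes also induced by cold, stayed at or below 6.08 on all 4 arrays and rose from 3 h to 6 h, by 3.86 and 3.38.

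Hormone genes of growth changed as well. Of 23 listed auxin and shade genes 4 were measured, 3 rose and 1 fell. GH3.5, which conjugates auxin to amino acids, rose from 31.1 and 34.5 to 103 and 86.2 (1.27 ± 0.20, adjusted p = 4.47e-05, limma). HAT2, a homeodomain-leucine zipper factor induced by auxin, and IAA29, an auxin response repressor, each rose by 0.95. GH3.3 fell by 1.01. The calls for HAT2 and IAA29 ended without replicate 1 at 1 h (0.60 and 0.59) or replicate 1 at 3 h (0.86 and 0.87). That for GH3.3 ended without replicate 2 at 1 h (-0.60) or replicate 1 at 3 h (-0.85).

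The gibberellin receptors, gathered after their values were seen, moved apart. GID1A read 41 and 27.2 at 1 h and 133 and 130 at 3 h (1.69 ± 0.18), and GID1C 22.4 and 17 at 1 h and 49.4 and 60.5 at 3 h (1.11 ± 0.23). GID1B, the third receptor, went from 80.9 and 85.9 to 28.1 and 38.2 (-1.11 ± 0.21). For each of the 3 receptors the times did not overlap. Adjusted p-values (limma) were 2.93e-07, 0.00073 and 0.000314.

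Of 25 listed photosynthesis genes 6 were measured, 0 rose and 2 fell. LHCB4.3, a minor light-harvesting protein, fell by 0.75, from 461 and 393 to 248 on both arrays. SBPASE, a Calvin cycle phosphatase, fell by 0.61 to 2280 and 1950. Its call did not hold after quantile normalization (adjusted p = 0.062, limma) or with log2(signal + 1) (0.0625). It also ended without replicate 1 at 1 h (-0.60) or replicate 2 at 3 h (-0.50). RCA, PRK, LHCB4.1 and LHCB4.2 changed by -0.26 to 0.27 and were not called. The 3 reference genes measured of 7 (UBC21, TIP41L and SAND) changed by 0.10, 0.13 and -0.28 and were not called. Of the root markers PYK10 rose by 0.69 in shoots, and EXPA7, EXPA18 and LBD16 were not called.

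Several families were picked after their values were seen, so their counts are descriptions only. All 7 measured ATG8 genes, whose ubiquitin-like proteins are anchored to autophagosome membranes, were called higher at 3 h, where 15.9% of all probe sets were. Their changes were 0.61 to 2.22 (log2). The difference between the organs was called for 4 of the 7, where it was called for 11.8% of all probe sets. ATG8D also rose in roots (0.60, adjusted p = 0.0168, limma). ATG8E (AT2G45170) went from 79.5 and 93.2 to 444 and 434 (2.22 ± 0.20, adjusted p = 4.27e-08, limma) and ATG8F (AT4G16520) from 334 and 353 to 1330 and 1120 (1.80 ± 0.15). Both had stood below 24 h at 1 h, by 1.76 and 1.84, and came to 0.46 and -0.04 of it at 3 h. ATG8H had the least firm call, which ended when any 1 of the 4 arrays was left out (adjusted p = 0.0544 to 0.127).

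Enzymes of leucine and valine breakdown in mitochondria were called higher in 4 of 4, against 15.9% of all probe sets. The difference between the organs was called for 0 of the 4, against 11.8% of all probe sets, which does not show equal changes. MCCA and MCCB, the subunits of methylcrotonyl-CoA carboxylase, rose by 1.4 and 1.46, with the MCCA call ending without replicate 2 at 1 h (adjusted p = 0.0599). ALDH6B2, methylmalonate semialdehyde dehydrogenase, rose by 1.12 and IVD, isovaleryl-CoA dehydrogenase, by 1.28. IVD read 63.9 and 51.2 at 1 h and 156 and 153 at 3 h, without overlap, though its call ended when any 1 array was left out (adjusted p = 0.0591 to 0.119). Of 12 listed sugar and dark responsive genes 2 were measured and 1 rose. AKINBETA1, a regulatory subunit of the energy sensor SnRK1, rose from 85.8 and 84.9 to 341 and 305 (1.80 ± 0.17, adjusted p = 4.73e-08, limma). APL3, a subunit of the starch synthesis enzyme ADP-glucose pyrophosphorylase, changed by 0.31 and was not called. Of 4 measured genes of starch breakdown 2 rose and 2 were not called (-0.06 to 2.13). DPE1, a plastid disproportionating enzyme of that route, rose from 35.7 and 34.7 to 221 and 163 (2.13 ± 0.17). GAMMA-VPE, a vacuolar processing protease, rose from 234 and 187 to 559 and 473 (1.26 ± 0.15).

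**Figure D3:**
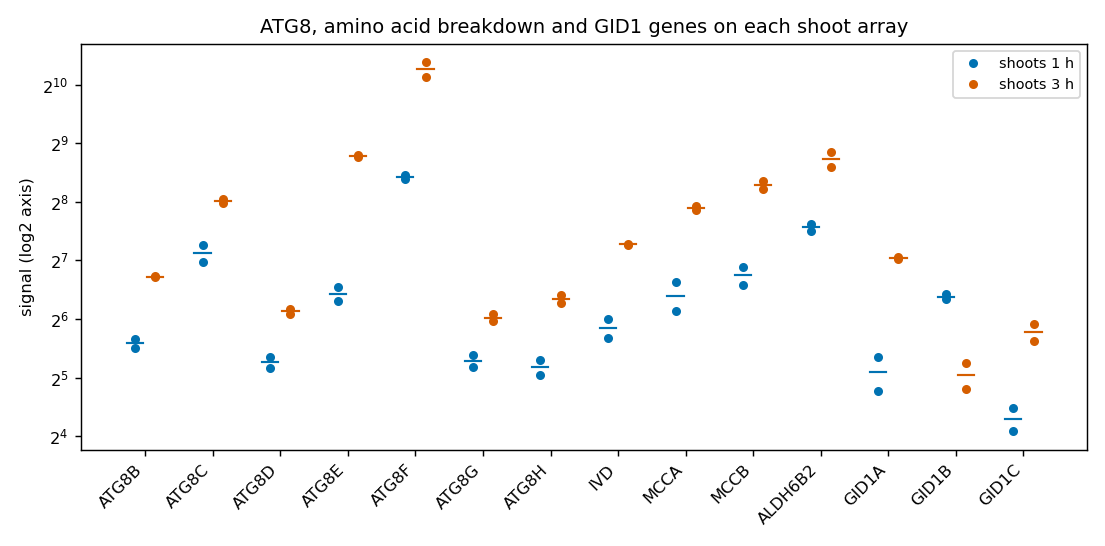
Each point is the signal of 1 shoot array on a log2 axis, and short bars mark the means of the 1 h and 3 h arrays. All 7 ATG8 genes and the 4 amino acid breakdown genes lie higher at 3 h, and of the gibberellin receptors GID1B alone lies lower.

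Secondary metabolism was mixed. Of 20 listed tryptophan and glucosinolate genes 2 were measured. IGPS, of tryptophan synthesis, fell by 0.59, a call that ended without replicate 2 at 1 h (-0.39). BCAT4, which starts chain elongation of methionine for glucosinolates, rose by 0.53. The BCAT4 call ended with log2(signal + 1) (adjusted p = 0.0514, limma), without the filter (0.0586) and with a plain eBayes (0.0563). It also ended with a replicate block (0.0518) and with the shoot arrays alone (0.0616). Without replicate 1 at 1 h (0.34) or either 3 h array (0.47 and 0.59) BCAT4 was not called. The glucosinolate transporters GTR1 and GTR2 both fell, GTR1 from 980 and 855 to 209 and 206 (2.09 ± 0.39, adjusted p = 0.000581, limma) and GTR2 by 1.07. Of 20 listed phenylpropanoid genes 3 were measured. HCT, of lignin synthesis, fell by 0.67, a call that ended without replicate 2 at 1 h (-0.58) or replicate 1 at 3 h (-0.59). CCR2 and DFR were not called. Of 40 UDP-glycosyltransferases, enzymes that attach sugars to hormones and metabolites, 10 rose and 6 fell, where 15.9% of all probe sets rose and 11.9% fell; UGT85A5 rose most (1.73) and UGT76E1 fell most (-1.97), from 66.7 and 70.2 to 8.98 and 10. Of 14 cytochromes P450 named by symbol, 6 rose and 0 fell, against the same shares, led by CYP71B26 (1.34), and this family too was gathered after values had been seen. The 3 measured of 14 listed heat shock genes had differences of 0.23 to 1 and were not called. HSP22 passed with log2(signal + 1) (1.88, adjusted p = 0.023), with the shoot arrays alone (0.00548) and with the 4 arrays alone (0.0232), the last of which also called HSP17.6C (0.0296). None of the listed ethylene or cell cycle genes was measured.

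Other regulators and transporters, picked after their values were seen, add to both sides. The AP2/ERF factor TINY (tny in the annotation) went from 101 and 120 to 33 and 26.1 (-1.59 ± 0.15), and HYH, a bZIP partner of the light regulator HY5, from 169 and 171 to 43.3 and 60.9 (-1.54 ± 0.15). NAI1, a bHLH factor needed for ER bodies, fell by 1.41 and BIM1, a bHLH factor of brassinosteroid signalling, by 1.22. MYBC1, a MYB factor linked to freezing tolerance, rose from 30 and 34.6 to 124 and 85.8 (1.41 ± 0.22). Of 10 SWEET sugar transporters 3 fell and 1 rose, where 11.9% of all probe sets fell and 15.9% rose. SAG29 (-1.45) and SWEET2 (-1.13) were lowest. The calls for the riser SWEET13 (0.45) and for SWEET16 (-0.59) ended when any 1 of the 4 arrays was left out, that for SWEET13 also with quantile normalization (adjusted p = 0.0669) and that for SWEET16 without the filter (0.0506). The 3 WLIM genes, whose proteins bundle actin, all rose (0.40 to 1.68), and TUB5, a beta-tubulin, rose from 111 and 128 to 320 and 326 (1.36 ± 0.18). WLIM2b's call ended without replicate 1 at 1 h (0.35) or replicate 1 at 3 h (0.32).

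Roots at the same hours changed far less. In roots 70 probe sets (0.43%) were called from 1 h to 3 h, 22 higher and 48 lower, and 36 of these 70 were called in the same direction in shoots. The change differed between the organs for 1926 probe sets (11.8%), 1059 with the shoot change above the root change (6.51%) and 867 below (5.33%). Among the 612 probe sets that fell at least 2-fold in shoots the median root change was -0.16 (log2), 14 also fell in roots and 474 differed between the organs. Among the 628 that rose at least 2-fold the root median was 0.17, 8 also rose in roots and 510 differed. Both sets were chosen on a large shoot change, and that change is part of the difference between the organs. The choice therefore favours a called difference. The root count itself is unsteady: it was 6 to 26 when any 1 root array was left out and 644 in a fit of the 4 root arrays alone.

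Named genes showed both patterns. XTH18 had root means of 196 ± 7.51 at 1 h and 165 ± 27.7 at 3 h (SD, n = 2 arrays), and its shoot change less its root change was -3.66 ± 0.64 (log2, adjusted p = 0.00109, limma). COR15B had root means of 16 and 10.9, and its shoot change exceeded the root change by 2.42 ± 0.36 (adjusted p = 0.000101, limma). OPCL1 had root means of 195 and 102, with a root change of -0.87 that was not called (adjusted p = 0.203) and a difference of -1.92 (adjusted p = 0.00157). APS3, an ATP sulfurylase of sulfate assimilation, fell by 1.24 in roots and by 1.11 in shoots. GTR1 had a root difference of -1.62 that was not called (adjusted p = 0.0885). For GTR1 and APS3 the difference between the organs was not called (adjusted p = 0.667 and 0.869), which does not show equal changes. COR28 rose in roots (13.8 and 19.4 to 56.9 and 43.1, 1.15 ± 0.24, adjusted p = 0.0345, limma) while it stayed dim in shoots.

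**Figure D4:**
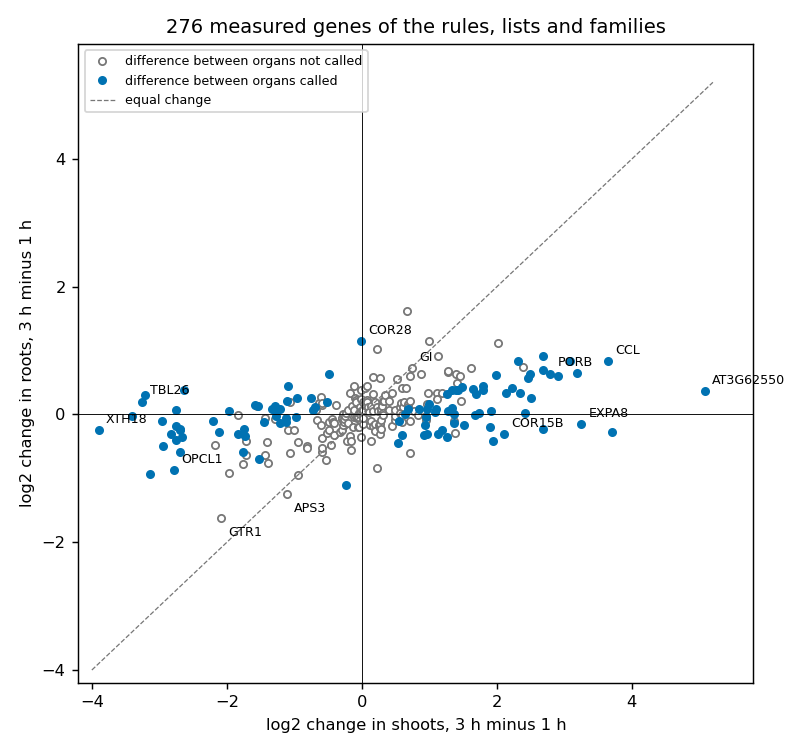
Each point is 1 measured gene of those named by rule, list or family, with the log2 change from 1 h to 3 h in shoots on the x axis and in roots on the y axis. Filled points passed the test of a difference between the organs; most large shoot changes, such as XTH18 (-3.90) and AT3G62550 (5.08), lie near 0 in roots, while GTR1 and APS3 lie near the dashed line of equal change.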

How the data were processed

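The data were ATH1 microarrays of shoots and roots at 7 times after wounding, 2 arrays in each of 14 groups. The authors deposited linear signal intensities; the submitters' processing notes name MAS5 without a version. The intensities were used as deposited, and scanner files were not used here. Of 22810 probe sets, 64 controls were left out. Values were log2(signal + 10.7), where 10.7 is the 25th percentile over the table, and tests kept the 16263 probe sets that exceeded their array's 40th percentile on both replicates of some group. The model was fitted with R 4.3.3 and limma 3.58.1: 1 mean per group over 28 arrays, 14 residual degrees of freedom, eBayes with trend and robust, Benjamini-Hochberg over the probe sets kept, calls under 0.05. Of those kept, 8878 have 1 gene, 332 several and 7053 are unnamed here, so many known wound genes are not reported; 13436 symbols come from the TAIR10.1 RefSeq table. No build is named in the sources, so no coordinates are given.

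The rule for named genes took the 15 largest rises and falls among calls with 1 gene, groups that did not overlap and the higher group above the 40th percentile; 5 each way in the difference between organs; 5 of each class of early wound gene; and every measured member of 21 lists (69 of 357 genes). The members and lists were chosen with earlier results of these data known, and families by symbol and further genes after their values were seen. On simulated data for shoots 3 h against 1 h (16263 probe sets) the fit called 82 of 100 true changes of 1 (log2), 98 of 100 true changes of 2 and 6 unchanged probe sets. Alternatives covered log2(signal + 1), quantile normalization, filters (none or the 60th percentile), a plain eBayes, a replicate block, fits of 1 organ or of the compared arrays, each array left out, and other baselines.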

Additional observations from a re-analysis of the deposited data

Results flagged for a closer look

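The change from 1 h to 3 h differed between shoots and roots by the test of the difference itself for 1926 probe sets, and the named genes with the largest differences are given here in log2 units. In favour of shoots these were AT3G62550 (4.73), AT2G20670 (3.99), EXPA8 (3.4), AT4G33666 (2.91) and CCL (2.82), each of which rose in shoots with a root change between -0.28 and 0.83. In the other direction they were XTH18 (-3.66), AT2G24600 (-3.52), TBL26 (-3.45), AT5G56980 (-3.37) and AT3G59350 (-3.03), each of which fell in shoots with a root change between -0.25 and 0.39. With 2 arrays in a group, no single array was tested as standing apart.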

How the results depend on the processing

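Counts of calls in shoots kept within 1.5 times of those reported except when an array was left out: 1608 to 2133 higher and 1217 to 1546 lower. Counts of at least 2-fold changes stayed within 1.5 times under every alternative run. The difference between organs gave 1212 to 1661 with 1 array left out, and root calls 6 to 26, or 644 with only the 4 arrays compared. Early wound genes that fell partly numbered 31 with the mean of 6, 12 and 24 h as baseline. Those persisting numbered 66 with log2(signal + 1), 25 to 45 with 1 array left out and 48 with the mean of 6 and 12 h, a baseline chosen after seeing the data. Of genes high at 1 h, 46 fell partly and 7 rose with the mean of 6, 12 and 24 h, 9 rose with the mean of 6 and 12 h, and 127 persisted with log2(signal + 1). The samples share only a replicate number (correlation of deviations -0.0349 over 2 pairs), and with the replicate number as a block 2547 were called higher and 1902 lower, with 71 in roots and 1850 for the difference. The cause of these shifts was not tested. For single genes, 2049 of the repeated values kept direction and side of the threshold, 95 lost the call, 17 gained it and 19 changed sign. Sign changes were all of uncalled genes. With 1 array left out these ranged over -0.02 to 1.43 for AT5G50335 (called at the upper end), -0.06 to 0.01 for COR27, -0.27 to 0.25 for COR28, 0 to 0.26 for EXPA18, -0.08 to 0.23 for LHCB4.1, -0.63 to 0.12 for LTI30, -0.42 to 0.1 for ORA47, -0.29 to 0.11 for PRK, -0.59 to 0.11 for PUB24 (called at the lower end), -0.28 to 0.05 for THI2.2, -0.19 to 0.15 for WRKY53 and -0.43 to 0.22 for XTH33. COR28 was also 0.06 and PRK 0.05 with quantile normalization, and COR28 0.14 with log2(signal + 1). Dim genes are limited by signal over background.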
